A study of Solanum lycopersicum with 6 samples.

Results

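DNA methyltransferase genes were followed in the pericarp, the fleshy wall, of tomato (Solanum lycopersicum) fruit. The set was given by name and locus and holds 6 genes: MET1, the chromomethylase genes CMT2, CMT3 and CMT4, and the DRM genes DRM5 and DRM7. Of these, 4 have a row among the 8703 genes of the authors' deposited table: MET1 (Solyc11g030600.3), CMT2 (Solyc12g100330.2), CMT4 (Solyc08g005400.3) and CMT3 (Solyc01g006100.3). The other 2, DRM5 (Solyc02g062740) and DRM7 (Solyc04g005250), have no row and were not analysed here. In the identifiers, the digits before the letter g name the chromosome, so MET1 lies on chromosome 11, CMT2 on 12, CMT4 on 8 and CMT3 on 1. The reference gene table lists each of the 6 symbols on the chromosome that its identifier names.

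Wild-type fruit (WT) and fruit of transgenic lines called jmj7 were compared, each with 3 RNA sequencing libraries, all in the Ailsa Craig background and all at 38 days after anthesis. The series' title names the target as the histone demethylase SlJMJ7 and concerns its ties to DNA demethylation, ethylene and the transcription factors of ripening. The labels give neither the kind of transgene, nor the number of lines behind a library, nor whether the libraries came from separate plants, so p-values here measure the spread between these libraries, which may be technical. No label contains the prefix of the columns taken here as jmj7; they were assigned because WT accounts for the other columns. JMJ7 is named neither in the authors' table nor in the reference, so the level of the targeted gene could not check the labels.

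Cytosine methylation in plant DNA is written by several enzyme families. MET1 copies methylation at CG sites onto the new strand after replication. Chromomethylases act mainly outside CG sites and, in Arabidopsis, are drawn to DNA by methylation of histone H3, while DRM enzymes are guided by small RNAs. Demethylases of the DML family remove methylated cytosine, and in tomato fruit DML2 is needed for ripening.

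The deposited table is a selection. In the authors' own comparison, no gene that it holds has a p-value over 0.0499 or a log2 fold change between -1 and 1. Reads in its genes ranged from 7508105 to 9155968 per library in WT and from 10937853 to 15254146 in jmj7, without overlap. These sums cover part of each library. Of 7622 genes that passed the filter on low counts, 100% were called with edgeR, 62.8% as lower and 37.2% as higher in jmj7. A call of a member was therefore fixed by the selection, and what follows rests on the members' levels, on the size of their changes and on how they changed relative to each other. PG2a, the polygalacturonase of ripe fruit, averaged 3.01 ± 1.41 normalized counts in the WT libraries and 661085 ± 23253 in the jmj7 libraries (SD, n = 3), and rose. The other listed fruit markers, PG-beta and E8, have a row but could not be matched to the reference and were left out. The epidermal marker genes CD1 and GPAT6, both of cutin synthesis, showed 10139 and 7049 reads in WT and 0 in every jmj7 library. CER6, the other listed epidermal marker, has no row. PG2a passed the filter on low counts only through its jmj7 libraries. CD1 and GPAT6 passed only through their WT libraries, so the direction of each of these markers was fixed. The part of ripening stage or of epidermis in the methyltransferase values was not tested, and in bulk tissue fewer cells of a type and less RNA per cell cannot be told apart.

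All 4 methyltransferase genes with a row were lower in jmj7 than in WT, and for each gene the groups did not overlap. Over all genes tested, 62.6% were lower in jmj7 with groups that did not overlap, and with 4 members selected for a difference nothing is read from their shared direction. The sizes differed among the members: by normalized count (the read count divided by the authors' size factor) CMT2 was 2.90-fold lower, MET1 3.29-fold and CMT4 7.74-fold, and CMT3 was close to undetected in jmj7.

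MET1, the maintenance enzyme of CG methylation, had 1372, 1444 and 1513 normalized counts in WT, and in jmj7 it had 475, 423 and 418. The lowest WT library thus stood well above the highest jmj7 library. Its mean fell from 1443 ± 70.9 to 438 ± 31.7 (SD, n = 3), and the log2 fold change was -1.71 ± 0.0635 (SE; adjusted p = 1.11e-24 in edgeR). The libraries varied by 4.91% in WT and 7.22% in jmj7, against counting errors of 2.43% and 5.18%.

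CMT2, which in Arabidopsis methylates CHH sites of long transposons, was the most abundant of the 4 in FPKM, a value per gene length and library depth. It had 1624, 1717 and 1861 normalized counts in WT and 595, 625 and 574 in jmj7. The difference between the groups exceeded the range within each of them. The mean fell from 1734 ± 119 to 598 ± 25.7 (SD, n = 3), and the log2 fold change of -1.54 ± 0.0588 was the smallest among the members (SE; adjusted p = 3.89e-24 in edgeR).

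CMT4, another chromomethylase of tomato, was a gene of low level. It had 158, 147 and 151 normalized counts in WT and 18.8, 21.1 and 19 in jmj7. All jmj7 libraries lay close together, on 20, 16 and 15 reads. The libraries varied by 3.55% in WT and 6.48% in jmj7, below counting errors of 7.50% and 24.4%. The spread between libraries thus understates the counting error of CMT4. The log2 fold change was -2.95 ± 0.235 (SE; adjusted p = 2.71e-16 in edgeR), and the mean went from 152 ± 5.38 to 19.6 ± 1.27 normalized counts (SD, n = 3).

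CMT3, which in Arabidopsis maintains CHG methylation, was the least abundant. Its reads were 51, 40 and 52 in WT and 1, 0 and 2 in jmj7. Every WT library was above every jmj7 library, but the jmj7 level rests on 3 reads in all. Scaled by the size factors, the pooled reads gave a level 35.2-fold lower in jmj7, with an exact 95% counting interval from 11.8-fold to 173-fold. The fitted log2 fold change was -5.00 ± 0.906 (SE; adjusted p = 3.45e-11 in edgeR). Without jmj7 replicate 3, which holds 2 of the 3 reads, it was -5.93. CMT3 passed the filter on low counts through its WT libraries, so it had to differ.

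**Figure D1:**
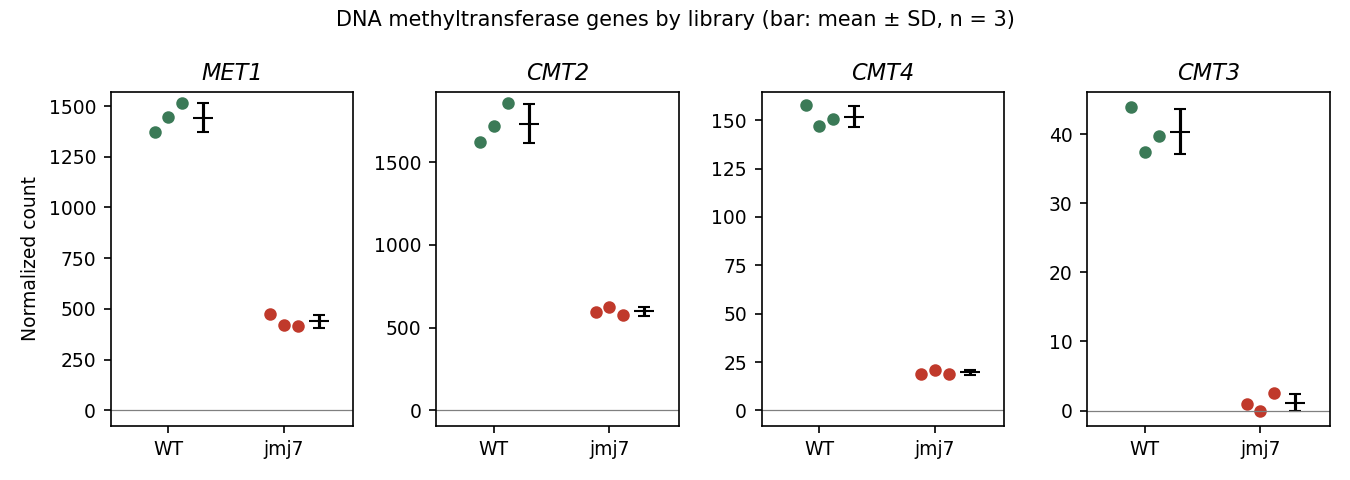
Normalized counts of MET1, CMT2, CMT4 and CMT3 (one panel each, linear axes of different range). Points are single libraries of WT and jmj7, and the bars beside them are mean ± SD over 3 libraries; in each panel the WT points lie above the jmj7 points, and for CMT3 the jmj7 points lie at 0.938, 0 and 2.53.

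The order of the levels per gene length was the same in both groups. In WT, FPKM was 29.9 ± 1.89 for CMT2, 15.7 ± 0.666 for MET1, 4.18 ± 0.19 for CMT4 and 0.781 ± 0.0713 for CMT3 (SD, n = 3). In jmj7 the FPKM levels were 7.01 ± 0.293 for CMT2, 3.23 ± 0.236 for MET1, 0.367 ± 0.0233 for CMT4 and 0.0152 ± 0.0168 for CMT3. Neighbours in this order were apart by more than their spread in each group. By read or normalized count MET1 and CMT2 looked closer, because the gene length behind the authors' FPKM was 0.629 times that of MET1 for CMT2; it was 0.562 times for CMT3 and 0.394 times for CMT4.

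FPKM gave larger folds than normalized counts for each of these genes. The ratio of mean FPKM, WT over jmj7, was 4.84 for MET1, 4.26 for CMT2, 11.4 for CMT4 and 51.4 for CMT3, against ratios of mean normalized counts of 3.29, 2.90, 7.74 and 34.9. The reason lies in the denominators: the depth that the authors' FPKM divides by was on average 1.09 times as large in jmj7 as in WT, while their size factors were 0.739 times as large. Tested with limma on log2(FPKM + 1), where 97.4% of the 8703 genes were called and 63.6% of the 8703 were called lower, the log2 differences were -1.98 ± 0.06 for MET1 and -1.95 ± 0.0614 for CMT2 (SE; limma adjusted p = 9.20e-08 and 1.11e-07). CMT4 gave -1.92 ± 0.0481 and CMT3 -0.81 ± 0.0492 (SE; limma adjusted p = 3.92e-08 and 3.41e-06). A pseudocount of 1 understates the change of low genes. With 0.1 the differences of CMT4 and CMT3 were -3.20 and -2.94, and those of MET1 and CMT2 were -2.24 and -2.08. CMT3 averaged an FPKM of 0.0152 in jmj7, below 0.1, so its difference of -2.94 is still understated.

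The makeup of the summed FPKM of the 4 genes with a row does not depend on how libraries are scaled to each other. DRM5 and DRM7 have no row, so these are not shares of all methyltransferase transcripts. The summed FPKM of the 4 genes was 48.6, 49.7 and 53.3 in WT against 10.8, 10.8 and 10.2 in jmj7. CMT2 held 59.2% ± 0.909 of this sum in WT and 66.0% ± 1.64 in jmj7 (SD, n = 3). MET1 held 31.0% ± 0.284 and 30.4% ± 1.79, shares that overlapped between the groups. CMT4 went from 8.28% ± 0.658 to 3.45% ± 0.199, and CMT3 from 1.55% ± 0.187 to 0.147% ± 0.165. In jmj7 these shares rest on 51 reads of CMT4 and 3 of CMT3 over all libraries. Shares of a sum are tied to each other, so a larger share of CMT2 goes with the smaller shares of CMT4 and CMT3 while its own FPKM was lower.

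**Figure D2:**
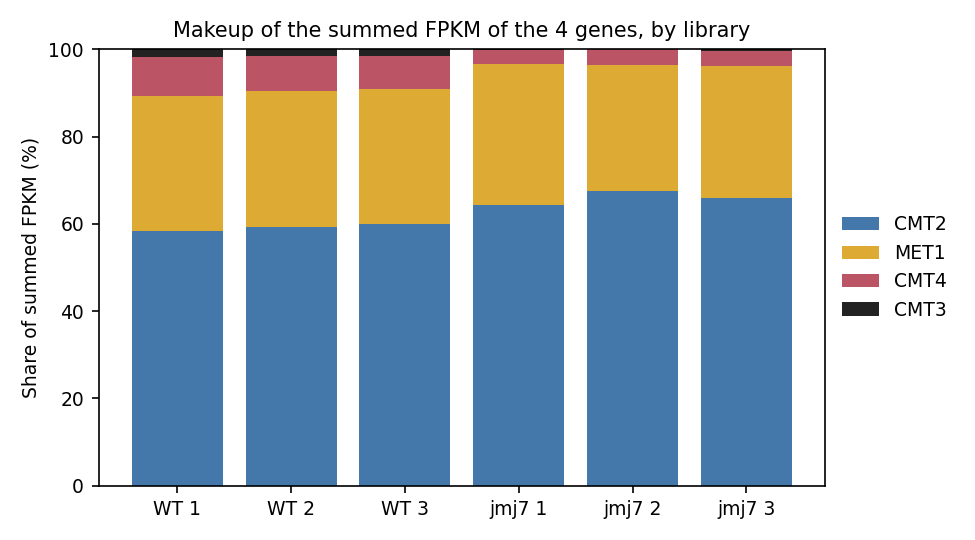
Share of each gene (vertical axis, percent) in the summed FPKM of CMT2, MET1, CMT4 and CMT3, with 1 stacked bar per library of WT and jmj7. CMT2 and MET1 together fill most of every bar, and the CMT4 segment is smaller in each jmj7 library, at 3.24% to 3.63% against 7.75% to 9.02% in WT.

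Ratios of reads between 2 genes within a library were compared for the 6 pairs of members. The log2 ratio of CMT4 to MET1 was -3.12, -3.29 and -3.33 in WT and -4.63, -4.28 and -4.41 in jmj7. CMT4 was thus lower relative to MET1 in every jmj7 library, by a further 2.29-fold on average. The log2 ratio of CMT2 to MET1 was 0.24, 0.25 and 0.30 in WT and 0.33, 0.56 and 0.46 in jmj7. The highest WT library and the lowest jmj7 library were thus close, and the mean difference of 0.19 was 1.14-fold. It ranged from 0.13 to 0.25 when each library was left out in turn.

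CMT4 relative to CMT2 was 2.61-fold lower in jmj7 than in WT. The log2 ratios were -3.51 ± 0.134 in WT and -4.89 ± 0.0537 in jmj7 (SD, n = 3). The jmj7 ratio rests on 20, 16 and 15 reads of CMT4, with a counting error of 24.4%, so its SD understates the counting error. The ratios with CMT3 varied most among the jmj7 libraries: relative to MET1 its log2 ratio, with 0.5 reads added to each gene, was -5.15 ± 0.169 in WT and -8.26 ± 1.15 in jmj7. This difference ranged from -3.72 to -2.58 when each library was left out in turn. Relative to CMT4 it was -1.90 ± 0.0637 in WT and -3.82 ± 1.21 in jmj7, a difference of -1.92 that was -1.30 without jmj7 replicate 2, in which CMT3 had 0 reads, and -2.51 without jmj7 replicate 3. For each of the 6 pairs the groups did not overlap. The exact two-sided permutation test gave p = 0.1 for each, also when adjusted over the 6 pairs. That is the smallest p that 3 against 3 libraries allow. The 6 pairs share 4 genes selected for a difference, and the share without overlap among other gene pairs was not computed. Nothing is therefore read from the number of pairs without overlap.

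The demethylase genes were set beside MET1 in the same way. Of 4 DML genes, DML1 and DML2 have a row and DML3 and DML4 have none. DML2 had 2.63, 2.40 and 2.40 times the FPKM of MET1 in WT, and 39.6, 43.2 and 43.7 times in jmj7. The log2 ratio of reads was higher in 3 of 3 jmj7 libraries, by 4.09 on average, a 17-fold change. The exact two-sided permutation test gave p = 0.1, the smallest possible. DML2 had been selected as higher and MET1 as lower in jmj7, so the direction of this ratio was fixed by the selection. DML1 fell more than MET1: its FPKM was 0.484 ± 0.0391 times that of MET1 in WT and 0.197 ± 0.00195 times in jmj7 (SD, n = 3), and the log2 ratio of reads was lower by 1.29 in jmj7, or 2.45-fold (same exact test, p = 0.1).

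**Figure D3:**
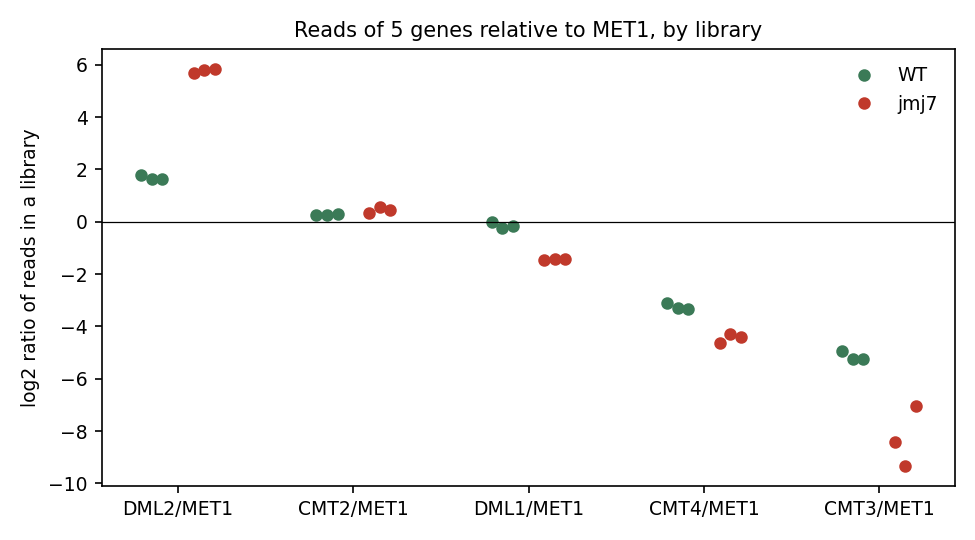
Log2 ratio of the reads of DML2, CMT2, DML1, CMT4 and CMT3 to those of MET1 (vertical axis) in each library; every point is 1 library of WT or jmj7, and 0.5 reads were added to each gene. DML2 lies at 1.65 to 1.78 in WT and 5.69 to 5.83 in jmj7, while CMT2 differs by 0.19 between the group means.

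How far the members stood from other genes of the table was read against the median. The median log2 fold change was -1.43 over the 7622 genes tested and -2.48 over the 4785 that were lower, and it was -2.33 over the 4 members, which had been selected for a difference like all genes of the table. Among the 4785 lower genes, 70.0% had a log2 fold change below that of MET1 and 75.7% below that of CMT2. The corresponding shares were 40.9% for CMT4 and 18.2% for CMT3.

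The size of each fold depended on the scaling, while the direction of the 4 members did not change under those tried. When size factors were recomputed from the table, CMT2 was 1.24-fold and MET1 1.40-fold lower, and CMT4 and CMT3 were 3.31-fold and 14.2-fold lower. That scaling moved the median log2 fold change of all genes tested by 1.23 and called 46.1% of them lower. With the depth behind FPKM, MET1 was 4.82-fold and CMT2 4.27-fold lower, with a shift of the median of -0.56. A rescaling moves every gene and the median by about the same amount, so the distance of a member from the median is not tested by it.

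**Figure D4:**
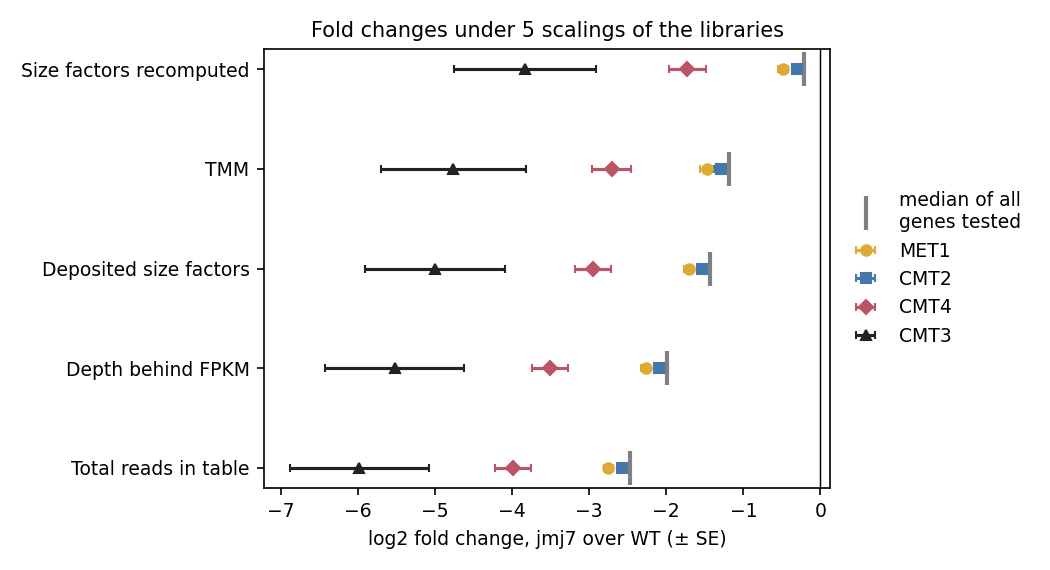
Log2 fold change of MET1, CMT2, CMT4 and CMT3 (horizontal axis, edgeR, ± SE) with 5 ways of scaling the libraries, 1 per row; the grey mark is the median over all genes tested. The symbols and the grey mark move together from row to row, and MET1 goes from -2.75 with total reads in the table to -0.48 with recomputed size factors.

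In the RNA-directed pathway, which brings DRM enzymes to DNA, 3 listed genes could be matched to the reference and only AGO4A has a row; DCL3, a small RNA processing enzyme, and AGO4B have none. DRM6 and DRM8, the remaining DRM genes listed, also have no row, so none of the 4 DRM genes was analysed here. AGO4A, an Argonaute protein that carries small RNAs in this pathway, had 6457, 6703 and 6698 normalized counts in WT and 3155, 3107 and 2958 in jmj7. Its log2 fold change of -1.11 ± 0.0382 (SE; adjusted p = 3.18e-25 in edgeR) turned to 0.12 when size factors were recomputed from the table.

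S-adenosylmethionine, the donor of every methyl group placed on DNA, is made by SAM synthetases, and in ripening fruit it is also the precursor of ethylene. Of 4 listed genes 3 have a row, of which 2 fell and 1 rose, and SAM3 has none; over all genes tested 62.8% were lower and 37.2% higher, and nothing is read from the split of so few genes. SAM1 averaged 63216 ± 2056 normalized counts in WT and fell to 7916 ± 297 in jmj7 (SD, n = 3; fold change on the log2 scale -3.00 ± 0.0356 SE, adjusted p = 2.98e-39 in edgeR). SAM2 fell from 9942 ± 305 to 3741 ± 40.4, with a log2 fold change of -1.41 ± 0.0367 SE (adjusted p = 4.63e-29 in edgeR). SAHH, which clears the by-product S-adenosylhomocysteine that inhibits methyltransferases, rose from 33738 ± 1604 to 431716 ± 4431 normalized counts, with a log2 fold change of 3.68 ± 0.0344 SE (adjusted p = 6.23e-42 in edgeR). Its FPKM was 10747, 10605 and 10524 in the jmj7 libraries and 1168, 1245 and 1252 in WT. With recomputed size factors SAM2 was 1.13-fold lower, and all 3 genes kept their direction.

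Genes of the cell cycle were listed because MET1 acts at replication. Of 8 that could be matched, 7 have a row and 6 were tested, of which 5 fell and 1 rose. Over all genes tested, 62.8% were lower and 37.2% higher in jmj7. Of those that fell, 4 (CDKA1, CDKB1, CycA1 and WEE1) passed the filter on low counts through their WT libraries and so had to fall; the count is a description, from which nothing is read about this list. CDKA1, the main cyclin-dependent kinase, averaged 789 ± 36.8 normalized counts in WT and fell to 17.1 ± 8.05 in jmj7 (SD, n = 3; fold change on the log2 scale -5.51 ± 0.234 SE, adjusted p = 2.05e-29 in edgeR). CDKB1, a kinase of dividing plant cells, fell from 95.2 ± 13.5 to 4.46 ± 1.02 normalized counts, on 12 reads over the jmj7 libraries. The D-type cyclin gene CycD3;1 was 4.88-fold lower, on 151 reads over the jmj7 libraries (log2 fold change -2.29 ± 0.148 SE). WEE1, an inhibitory kinase, was 4.91-fold lower, on 25 reads (log2 fold change -2.30 ± 0.358 SE). With recomputed size factors CycD3;1 was 2.09-fold and WEE1 2.11-fold lower. CycA1, an A-type cyclin gene, fell on few reads, 60 in all of WT and 7 in all of jmj7. CCS52A, an activator of the ubiquitin ligase that removes mitotic cyclins, was the one that rose, from 387 ± 23.3 to 1414 ± 16.8 normalized counts (fold change on the log2 scale 1.87 ± 0.0606 SE, adjusted p = 2.00e-26 in edgeR). CDKB2, below the filter on low counts, had 16, 7 and 7 reads in WT and 0, 0 and 5 in jmj7, and its normalized counts overlapped between the groups. CycD3;3 has no row.

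**Figure D5:**
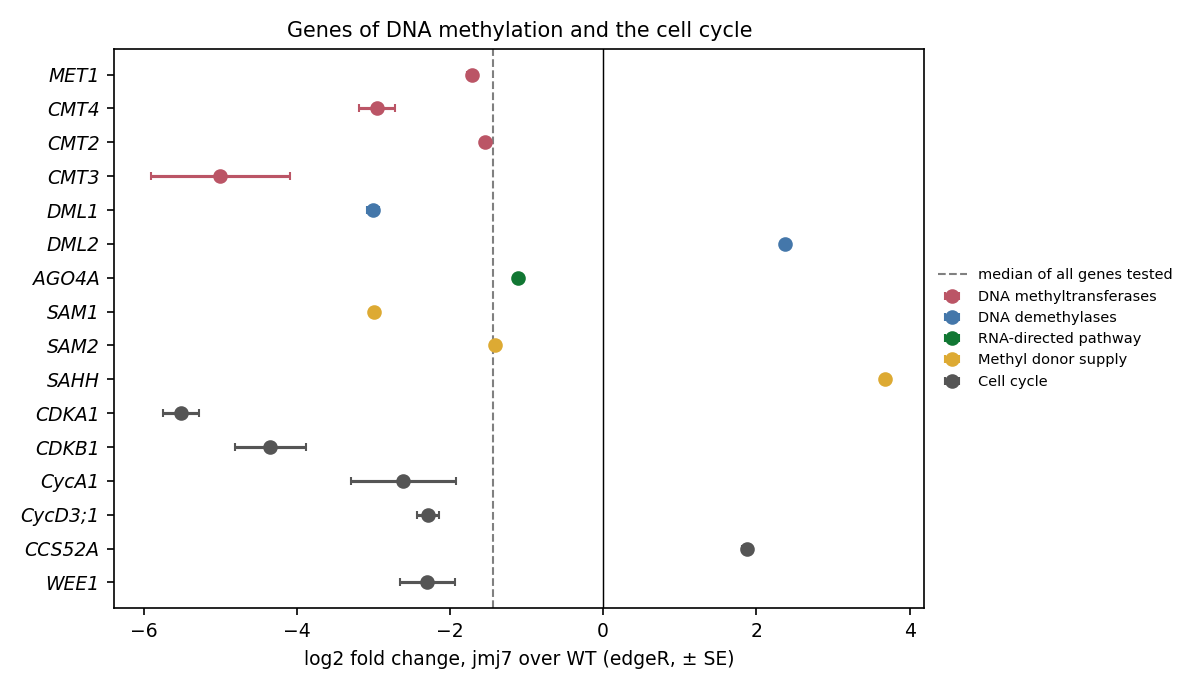
Log2 fold change, jmj7 over WT (horizontal axis, edgeR with the deposited size factors, ± SE), of the tested genes of DNA methylation, methyl donor supply and the cell cycle. The dashed line is the median of all genes tested, -1.43; DML2, SAHH and CCS52A lie above 0 and the other genes below, of which AGO4A turned to 0.12 with recomputed size factors.

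For each member, the gene of the table with the nearest profile was sought as the smallest Euclidean distance between log2(normalized count + 1) over the 6 libraries. For MET1 it was Solyc01g090270.3, at a distance of 0.242, with 1477 ± 101 normalized counts in WT and 400 ± 25.5 in jmj7 (SD, n = 3). For CMT2 it was Solyc07g053140.3, at a distance of 0.201, with 1764 ± 41.7 in WT and 616 ± 8.49 in jmj7. Neither identifier is paired with a name in the sources used here. The nearest profiles of CMT4 and CMT3, also unnamed genes, lay at distances of 0.338 and 0.260.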

How the data were processed

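Pericarp RNA of 3 WT and 3 jmj7 libraries was sequenced, and HISAT2 was used, per the submitters' processing notes; for its version, the build, the counting tool and strandedness, the sources used here give nothing. Read counts were deposited by the authors for each gene and library, per the file headers. A second deposited value is a signal equal to the count divided by 1 size factor per library (1.16, 1.07 and 1.31 in WT; 1.07, 0.759 and 0.79 in jmj7), called the normalized count. FPKM, log2 fold changes and p-values of the authors are also given, per the file headers; the last 2 served only to describe how the table was selected.

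The quasi-likelihood test of edgeR 4.0.16 (R 4.3.3) was run on the counts with the deposited size factors as scaling, a prior count of 0.125 and filterByExpr at a minimum count of 10, with Benjamini-Hochberg adjustment over all 7622 genes tested and a threshold of 0.05. The deposited factors were preferred because TMM takes most genes as unchanged, which a table of called genes need not meet. Standard errors of the edgeR fits are Wald errors, never below the counting error. FPKM was tested with limma 3.58.1 on log2(FPKM + 1), and its standard errors have no such floor. Ratios within libraries had 0.5 reads added to each gene and were tested by exact permutation in SciPy 1.17.1. The edgeR and limma fits were tried on simulated data in which few genes changed, as many up as down. That setting does not cover the selection of this table or its scaling. Intervals cover counting error only.

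The members, the gene lists and the rule for named genes (every member and list gene with a row, plus the nearest profile of each member) were chosen with earlier results of these data known. Of 40 listed identifiers, 31 had a symbol in the reference gene table (assembly SLM_r2.1) on the right chromosome, and all 38 pairs on a shared chromosome stood in the same order; the 9 others were left out. Replicate numbers were not used to pair the libraries in the main tests. Alternatives were other scalings, DESeq2 1.42.0, no filter, other pseudocounts, a replicate block and leaving out each library.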

Additional observations from a re-analysis of the deposited data

How the results depend on the processing

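All 145 log2 values computed for the 4 methyltransferase genes and for the ratios under alternatives kept their direction and their side of the threshold; since the genes had been selected for a difference, and 3 against 3 libraries cannot pass an exact test, this says little about robustness. Of 65 counts, 62 stayed within 1.5 times the count reported. The exceptions were genes changed at least 2-fold: 2828 were higher with the deposited size factors, 1030 with total reads in the table and 1537 with the depth behind FPKM, and 4777 were lower against 2685 with size factors recomputed over the table. These follow from the shift of all genes by the scaling, which moved the median log2 fold change by -1.04, -0.56 and 1.23 in turn, and by 0.24 with TMM. The values of CMT2 and CMT3, the member pairs other than CMT4 to MET1, and the depth behind FPKM were added after the data were seen; the ratios of DML2 and DML1 to MET1 were planned.

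Leaving out each library in turn gave -1.78 to -1.67 for MET1, -3.00 to -2.92 for CMT4, -1.58 to -1.48 for CMT2 and -5.93 to -4.55 for CMT3, on the log2 scale of counts. On FPKM the ranges were -2.02 to -1.95, -1.94 to -1.89, -1.98 to -1.90 and -0.84 to -0.78 in the same order. The ratio of CMT4 to MET1 ranged from -1.28 to -1.10, DML2 to MET1 from 4.06 to 4.13 and DML1 to MET1 from -1.34 to -1.23. CMT3 was below the filter of a mean FPKM of 1, and its ratios without a pseudocount could not be computed, since 1 library had 0 reads.

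With the replicate number as a block, MET1 was -1.71, CMT4 -2.95, CMT2 -1.53 and CMT3 -5.01, and no call among them changed; 2837 genes were higher and 4785 lower, as without the block. Deviations of same-numbered libraries correlated at -0.03, 0.02 and -0.01, so no shared deviation was seen. These values cannot show whether same-numbered libraries had a batch in common.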
